A study of Mus musculus with 18 samples.

Results

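The genes described here are 10 that are used to place a cell on the axis between an epithelial and a mesenchymal state: the cadherins Cdh1, Cdh2 and Cdh3, the surface and junction proteins Epcam and Cldn6, the intermediate filament gene Vim, and the transcription factors Zeb1, Zeb2, Snai1 and Snai2. They were taken by symbol from the table of 24296 genes, all 10 were found, and all 10 passed the filter on low counts in both sets of libraries. RNA-seq was performed on 18 libraries of E14-derived mouse embryonic stem cells (mESCs), in 2 sets. In the first set, mESCs of genotype Rex1GFPd2-Cas9 were sampled on days 0, 1, 2 and 3 of differentiation, with 3 libraries per day. In the second set, cells sorted for GFP were compared between Rex1GFPd2-Cas9 (called wild-type below), Rex1GFPd2-Cas9 Nprl2-/- (Nprl2 KO) and Rex1GFPd2-Cas9 Tsc2-/- (Tsc2 KO), with 2 libraries per genotype. All 18 libraries therefore carried the destabilised GFP reporter in the Rex1 (Zfp42) locus and a Cas9 transgene, which sits at Rosa26 under the EF1α promoter. Each KO was made by deleting a critical exon with a pair of gRNAs and picking clones with both alleles deleted, and the labels do not say whether the 2 libraries of a KO are separate clones or cultures. The GFP+ cells came from serum + LIF (SL) medium on mitomycin-treated feeder fibroblasts, and how day 0 cells were kept before sampling is not stated for the time course.

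Cadherins are calcium-dependent adhesion proteins that hold neighbouring cells together at adherens junctions, where their tails bind catenins and, through them, actin. E-cadherin (Cdh1) is the main cadherin of embryonic stem cells and of the epiblast, and N-cadherin (Cdh2) and vimentin (Vim) are classical markers of mesenchymal cells. The Zeb and Snai proteins are zinc finger repressors that bind E-box sequences in the promoters of epithelial genes, and gastrulation is the best known setting in which they act in the embryo. Nprl2 is a subunit of Gator1 and Tsc2 a subunit of the Tsc1/2 complex, both negative regulators of the kinase complex mTORC1.

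Promoter windows of RefSeq (build GRCm38.p6) were available for 5 of the 10 genes (Epcam, Cldn6, Snai1, Vim and Zeb2), and not for Cdh1, Cdh2, Cdh3, Zeb1 and Snai2. The 6-letter E-box CACCTG, which reads CAGGTG on the other strand, was searched in the 250 bases before each start. The 5 genes had 8 windows, 4 of them at Zeb2, and 3 of the 8 held the letters, against 17.2% of all 32851 windows of that length. By gene, 3 of the 5 had a window with them, against 19.4% of all 27025 genes in the table. The window of Epcam (chr17:87635729-87635978, plus strand) held it at 2 places, beginning 187 and 19 bases before the start, and 2.06% of all windows held 2 or more. The window of Snai1 (chr2:167537945-167538194, plus strand) held 1, beginning 126 bases before the start. In Cldn6 it began 93 bases before the start, and 30 bases around it are shown (chr17:23679260-23679289, plus strand). The windows of Vim and Zeb2 held none. The sequences of the 3 genes with the letters are given 5′ to 3′ with the E-box in capitals, because these are the members with the letters in their windows. Whether any of the 4 factors acts at them was not tested.
Epcam: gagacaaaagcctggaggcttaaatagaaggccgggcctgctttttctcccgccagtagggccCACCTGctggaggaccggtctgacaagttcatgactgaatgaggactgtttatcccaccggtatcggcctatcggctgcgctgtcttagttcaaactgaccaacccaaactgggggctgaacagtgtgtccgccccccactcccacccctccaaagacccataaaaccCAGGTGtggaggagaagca
Snai1: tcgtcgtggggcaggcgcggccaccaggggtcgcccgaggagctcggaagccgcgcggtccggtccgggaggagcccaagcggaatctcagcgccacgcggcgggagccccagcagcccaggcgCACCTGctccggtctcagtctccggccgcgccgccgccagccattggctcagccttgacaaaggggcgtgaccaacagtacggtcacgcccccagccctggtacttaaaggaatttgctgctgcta
Cldn6: gggaaacgcacgCAGGTGgctatcgccgca

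The libraries held 12503005 to 15305054 estimated counts in the time course and 8610357 to 13780861 in the GFP+ set, and 3 counts corresponded to 0.196 to 0.348 CPM (counts scaled to the library total). Levels are given below as TPM (estimated transcript abundance scaled for length and library total), and differences as log2 fold changes from the counts, with their SE, and p-values are from the quasi-likelihood test of edgeR, adjusted by Benjamini-Hochberg over all genes. A gene was called changed at an adjusted p under 0.05. The targeted genes followed the labels: Nprl2 was at 8.09 and 8.65 TPM in Nprl2 KO against 16.1 and 17.0 in wild-type, and Tsc2 was at 18.8 and 20.3 TPM in Tsc2 KO against 45.0 and 44.9. Zfp42, the gene that carries the reporter, fell from 726 to 804 TPM on day 0 to 11.3 to 14.4 TPM on day 3. The summed level of 18 fibroblast marker genes was 16.5 to 57.6 TPM in the time course and 205 to 269 TPM in 5 of the GFP+ libraries, and 72.8 TPM in Tsc2 KO library 2, which stood apart from the rest.

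The first question was how the 10 genes changed as mESCs left the naive state. From day 0 to day 1, 7 of the 10 were called changed, of 60.9% of all 14382 genes tested. Of these, 5 rose (Cdh1, Cdh2, Cdh3, Epcam and Cldn6) and 2 fell (Vim and Zeb1), where 30.1% of all genes rose and 30.8% fell. The median log2 fold change of the 10 was 0.67, against 0.00 over all genes tested. From day 1 to day 2, 8 were called, 5 higher and 3 lower, of 62.1% of all genes (32.5% higher and 29.6% lower). From day 2 to day 3, 4 were called, and all 4 rose, of 31.5% of all genes (15.9% higher and 15.6% lower), and 2 were called without day 2 library 1. Over the whole course, day 3 against day 0, all 10 were called, of 70.9% of all genes (35% higher and 35.9% lower): 6 were higher and 4 were lower. The share of all genes that changed was thus large at each of the first 2 steps, and the members' counts are close to it.

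**Figure D1:**
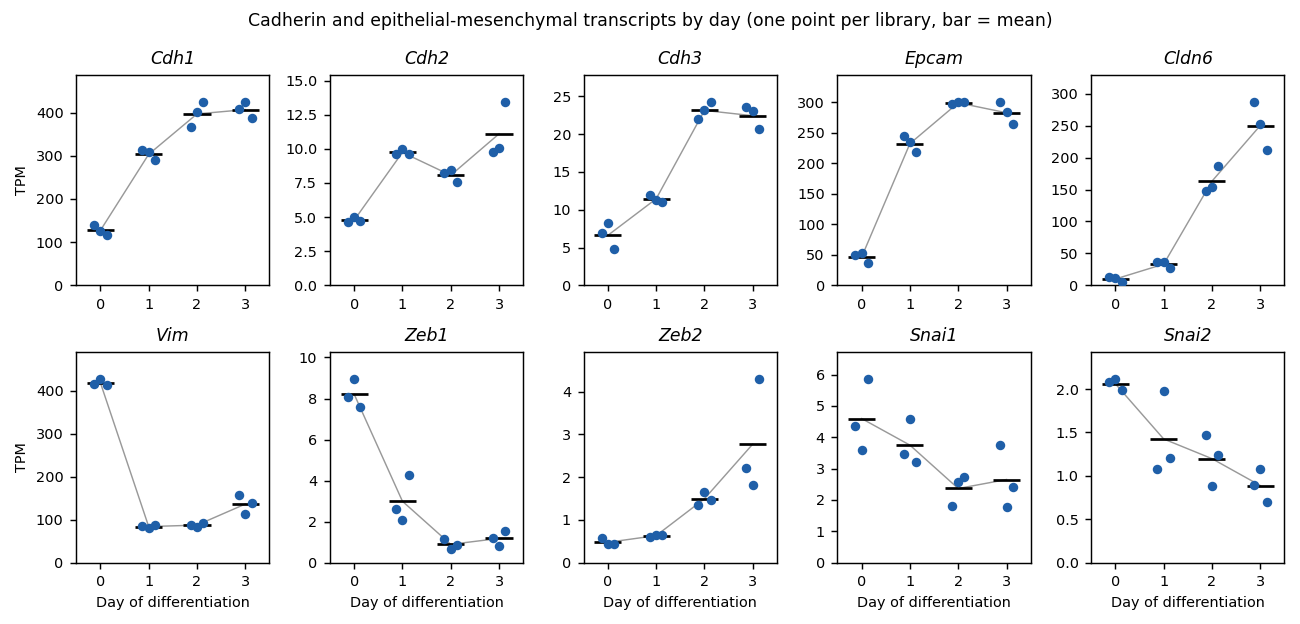
TPM (y axis, linear, from 0, with its own scale for each gene) of the 10 genes against day of differentiation (x axis). Points are libraries, n = 3 per day, bars are means, and the grey line joins the means. Cdh1, Epcam and Cldn6 ended far above day 0, Vim fell from a mean of 419 to 83.8 TPM in 1 day, and Zeb1 and Zeb2 moved in opposite directions.

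Cdh1 was the most abundant cadherin at every time. Its level was 139, 125 and 117 TPM on day 0, 312, 308 and 289.5 TPM on day 1, 366.0, 400.3 and 424 TPM on day 2, and 409, 424 and 387 TPM on day 3. The lowest day 1 library was more than 2-fold above the highest day 0 library, and days 2 and 3 overlapped. The rise was 1.33 ± 0.07 (log2, SE) at the first step and 0.27 ± 0.07 at the second (edgeR adjusted p = 4.57e-12 and 0.00154), and the third step was not called (-0.01 ± 0.07, adjusted p = 0.963).

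Cdh3, which encodes P-cadherin and lies next to Cdh1 on chromosome 8 (chr8:106510852-106556911 and chr8:106603350-106670247), was at 6.88, 8.21 and 4.74 TPM on day 0, 11.98, 11.3 and 10.99 TPM on day 1, 21.9, 23.2 and 24.2 TPM on day 2, and 23.5, 23.0 and 20.7 TPM on day 3. It therefore rose in 2 near-equal steps, by 0.85 ± 0.13 and 0.90 ± 0.12 (log2, SE), where most of the rise of Cdh1 came in the first. Of the 2 transcripts of Cdh3 that were quantified, 1 carried 78.5% to 87.9% of its TPM on each day. The Cdh1 level was 15.2 to 27.1 times that of Cdh3 across the 12 libraries.

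Cdh2 (N-cadherin) was present at low levels throughout, at 4.65, 4.98 and 4.68 TPM on day 0, 9.60, 9.98 and 9.63 TPM on day 1, 8.23, 8.41 and 7.53 TPM on day 2, and 9.79, 10.1 and 13.4 TPM on day 3. It rose by 1.10 ± 0.11 at the first step (edgeR adjusted p = 7.79e-08), fell by 0.39 on the log2 scale at the second (SE 0.11, adjusted p = 0.00391) and rose by 0.41 ± 0.11 at the third (adjusted p = 0.0061). The second of these was not called by limma on log2(TPM + 1) or log2(TPM + 0.1) (adjusted p = 0.0621 and 0.0631). Day 3 library 3 was the highest of all 12. Cdh1 stayed well above Cdh2: the ratio of their TPM was 25.01 to 29.9 on day 0, 30.1 to 32.5 on day 1, 44.5 to 56.3 on day 2 and 28.8 to 42.1 on day 3, so that no library of the course showed a cadherin switch in favour of Cdh2. The day 2 ratios lay above those of every other day, and the range of day 3 overlapped those of days 0 and 1.

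Epcam, a transmembrane adhesion protein of epithelia and pluripotent cells, was at 49.8, 53.0 and 36.4 TPM on day 0 and 244, 235 and 219 TPM on day 1. It then stood at 297, 301 and 301 TPM on day 2 and 300.2, 284 and 265 TPM on day 3. Most of the rise came on the first day, by 2.39 ± 0.10 (log2, SE, edgeR adjusted p = 1.37e-11). The second step was small (0.25 ± 0.09, edgeR adjusted p = 0.0306), and it lost its call with no filter on low counts (adjusted p = 0.0589) and without any 1 of day 1 libraries 2 and 3 and the 3 day 2 libraries (adjusted p = 0.0616 to 0.13).

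Cldn6, a claudin of tight junctions typical of embryonic epithelia, rose most in proportion. It was at 12.6, 11.3 and 5.84 TPM on day 0, 36.0, 36.3 and 27.2 TPM on day 1, 148, 154 and 186 TPM on day 2, and 287, 252 and 211 TPM on day 3. No 2 days overlapped, and the total rise was 4.57 ± 0.23 (log2, SE), or 23.7-fold. The last step (0.58 ± 0.18, edgeR adjusted p = 0.0324) was not called with DESeq2, limma or no filter on low counts (adjusted p = 0.0568 to 0.117), or without day 2 library 1 or 2 or day 3 library 1 or 2 (adjusted p = 0.0724 to 0.109). Its genomic neighbour and close relative Cldn9, with which reads could be shared, stayed between 0 and 1.70 TPM in the time course.

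Vim moved the other way. It was the most abundant of the 10 on day 0, at 417, 427 and 413 TPM, and dropped to 84.5, 80.5 and 86.3 TPM on day 1. It then stood at 86.8, 82.0 and 92.8 TPM on day 2 and 158, 113 and 138 TPM on day 3. The fall was 2.25 on the log2 scale in 1 day (SE 0.09, edgeR adjusted p = 2.12e-13), and the later rise of 0.60 ± 0.09 (adjusted p = 6.49e-05) left day 3 below day 0 in every library. The 3 day 0 libraries, where Vim was highest, had fibroblast marker sums of 17.1 to 27.6 TPM and Col1a1, the defining fibroblast collagen, at 2.98 to 6.59 TPM. On day 3, Col1a1 was at 1.03 to 1.25 TPM, the marker sum was 48.0 to 57.6 TPM, and Thy1, also expressed by neural cells, made up 26.8 to 33.3 TPM of it. Whether fewer cells with the transcript or less transcript per cell underlies a change in these bulk samples cannot be told apart, here and below.

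Zeb1 and Zeb2, which encode related factors, went in opposite directions. Zeb1 was at 8.09, 8.94 and 7.60 TPM on day 0, 2.62, 2.07 and 4.28 TPM on day 1, 1.14, 0.669 and 0.847 TPM on day 2, and 1.18, 0.807 and 1.54 TPM on day 3. It fell by 1.40 and then by 1.86 on the log2 scale (SE 0.21 and 0.28, edgeR adjusted p = 4.20e-05 and 3.39e-05). Zeb2 was at 0.565, 0.430 and 0.423 TPM on day 0, 0.599, 0.638 and 0.654 TPM on day 1, 1.36, 1.65 and 1.47 TPM on day 2, and 2.20, 1.82 and 4.29 TPM on day 3. Its rise from day 0 to day 3 was 2.46 ± 0.27 (log2, SE, edgeR adjusted p = 5.91e-07). The ratio of Zeb1 to Zeb2 TPM went from 14.3 to 20.8 on day 0 to 0.359 to 0.537 on day 3, so the order of the pair was exchanged between days 1 and 2. The third step of Zeb2 (0.82 ± 0.24, edgeR adjusted p = 0.0147) rested in part on day 3 library 3: without that library it was 0.39 with an adjusted p of 0.0945, and without day 2 library 1 it was 0.77 with an adjusted p of 0.0579. It was also not called when only the 2 days compared were fitted (adjusted p = 0.092) or by limma on log2(TPM + 0.1) (adjusted p = 0.0529).

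Snai1 and Snai2, at the lowest levels beside Zeb1 and Zeb2, showed no rise at any step that passed the test. Snai1 was at 4.35, 3.59 and 5.85 TPM on day 0, 3.46, 4.59 and 3.20 TPM on day 1, 1.80, 2.58 and 2.72 TPM on day 2, and 3.77, 1.77 and 2.41 TPM on day 3. Only its step from day 1 to day 2 was called among the single steps (-0.78 ± 0.29, edgeR adjusted p = 0.0257), and that call was lost without day 1 library 2 or day 2 library 1 (adjusted p = 0.123 and 0.103). Its difference over the whole course (-0.86 ± 0.28, edgeR adjusted p = 0.00944) lost the call without day 0 library 3 or day 3 library 2 (adjusted p = 0.0587 and 0.0555). Snai2 drifted from 2.08, 2.11 and 1.99 TPM on day 0 to 0.891, 1.07 and 0.699 TPM on day 3, and fell by 1.27 on the log2 scale (SE 0.31, edgeR adjusted p = 0.00113) without any single step passing the test. These values came from 9 to 34 estimated counts per library for Snai2 and 18 to 61 for Snai1.

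In order of level, Vim, Cdh1 and Epcam led on day 0, and Cdh1, Epcam, Cldn6 and Vim on day 3, per unit of transcript length. On day 0 the neighbours Cldn6, Zeb1, Cdh3, Cdh2 and Snai1 overlapped from each to the next. On day 3 the libraries of Epcam and Cldn6 overlapped, as did those of Zeb2 and Snai1 and those of Zeb1 and Snai2.

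**Figure D2:**
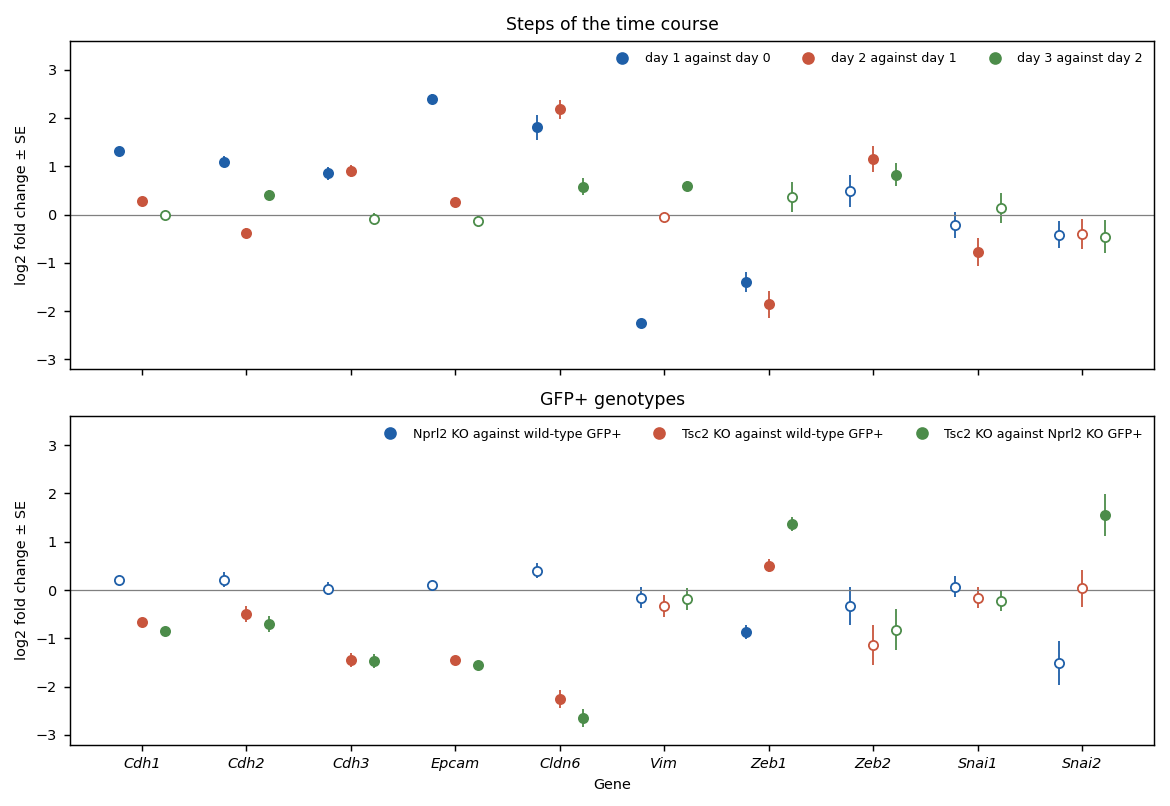
Log2 fold change with its SE (y axis) of the 10 genes (x axis) at each step of the time course (upper panel, n = 3 libraries per day) and between GFP+ genotypes (lower panel, n = 2 per genotype). Filled points were called at an adjusted p under 0.05 and open points were not. In the upper panel most of the called changes are at the first 2 steps. In the lower panel the 3 cadherins, Epcam and Cldn6 lie below 0 for Tsc2 KO, and Zeb1 lies below 0 for Nprl2 KO and above 0 for Tsc2 KO.

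The genes whose pattern over the 12 time-course libraries was nearest to that of a member were found by the root mean square difference of centred log2 CPM, among 10084 genes with a mean of at least 5 TPM. Nearest to Cdh1 were Tcfl5 and Hook1 (0.116 and 0.121), nearest to Cdh2 were Pak1, L3mbtl3 and Ube2k (0.12 to 0.155), and nearest to Cdh3 were Ldha, Slc43a1 and Pla2g12a (0.116 to 0.15). For Epcam they were Podxl, Igsf9 and Myb (0.159 to 0.162), and for Vim they were Prr13, Renbp and Gjc1 (0.127 to 0.181). Cldn6 had no gene as near: Mapk12, Igfbp5 and Lratd2 were at 0.282 to 0.333. Podxl, a sialomucin of the cell surface, went from 7.13 to 29.7, 39.9 and 43.0 TPM (means of days 0 to 3).

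Other epithelial genes were examined as a list of 32 that encode tight junction, desmosome and keratin proteins and epithelial regulators. All 32 were tested in the time course. From day 0 to day 1, 11 were higher and 10 lower (34.4% and 31.2% of the list), close to the 30.1% and 30.8% of all genes. From day 1 to day 2, 24 were higher and 2 lower (75% and 6.25%, against 32.5% and 29.6% of all genes), with a median of 1.20 (log2) against 0.02 over all genes. From day 2 to day 3, 17 were higher and 2 lower (53.1% and 6.25%, against 15.9% and 15.6%), and the 17 became 9 without day 2 library 1, day 2 library 2 or day 3 library 1. Over the course, 26 were higher and 2 lower (81.2% and 6.25%, against 35% and 35.9%), with a median of 1.41 against -0.01 over all genes. Esrp1, a splicing regulator that keeps epithelial isoforms, was the list's second largest early rise, from 2.93 ± 0.75 to 54.5 ± 2.87 TPM (SD, n = 3) on day 1, and reached 82.7 ± 7.06 TPM on day 3. Grhl2, an epithelial transcription factor, peaked on day 1, going from 3.50 ± 0.40 to 67.3 ± 1.82 TPM and back to 18.1 ± 0.68 TPM on day 3. Cldn7 rose later, from 5.23 ± 0.97 TPM on day 1 to 94.9 ± 20.8 on day 2 and 168 ± 26.4 on day 3. The keratin gene Krt8 rose from 42.1 ± 21.1 to 249 ± 81.0 TPM between days 2 and 3. The desmosome genes Dsg2 and Dsp fell on day 1, from 24.3 ± 0.60 to 4.83 ± 0.43 TPM and from 6.51 ± 1.04 to 1.77 ± 0.23 TPM, at the same step at which Cdh1 and Epcam rose. Desmosome genes did not all fall at that step: Pkp2 changed by 1.29 and Pkp3 by -1.12 (log2). On day 3, Dsp stood above day 0 (0.69) and Dsg2 below it (-0.57).

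Catenins and other cadherin partners went both ways. Of 14 tested, 6 were higher and 4 lower on day 3 than on day 0 (42.9% and 28.6%, against 35% and 35.9% of all genes), with a median of 0.09 (log2). Ctnnb1, which encodes β-catenin, did not pass the test over the course (0.02 ± 0.05, edgeR adjusted p = 0.771), and rose by 0.35 at the first step and fell by 0.42 at the second (log2). Jup, which encodes plakoglobin, the other catenin of its kind, fell from 105 to 47.5 TPM (means of days 0 and 3) and by 1.23 on the log2 scale. Vcl, which encodes vinculin, an actin linker at junctions, rose from 57.4 to 177 TPM. Of 14 further cadherins and protocadherins, 13 were tested, and 9 were higher and 1 lower on day 3 than on day 0 (69.2% and 7.69%, median 2.09). Pcdh1 rose from a mean of 1.28 to 67.4 TPM, a level above those of Cdh3 and Cdh2, and Cdh10 from 0.0442 to 6.48 TPM.

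The mesenchymal list did not move one way. Of 35 genes, 31 were tested: 7 were higher and 14 lower on day 1 than on day 0 (22.6% and 45.2%, against 30.1% and 30.8% of all genes), and 13 were higher and 8 lower on day 2 than on day 1 (41.9% and 25.8%, against 32.5% and 29.6%). On day 3, 18 were higher than on day 2 (58.1%, against 15.9%) and the other 13 were not called. The medians of the 3 steps were -0.32, 0.21 and 0.45. Over the course 13 were higher and 10 lower (41.9% and 32.3%), near the 35% and 35.9% of all genes, with a median of 0.02 against -0.01. Fn1, which encodes the matrix protein fibronectin, fell from 224 ± 14.5 to 60.04 ± 7.80 TPM (SD, n = 3), and the actin-associated genes Tagln and Acta2 rose from 6.21 ± 3.01 to 249 ± 88.7 TPM and from 2.95 ± 1.98 to 53.9 ± 15.5 TPM. Fibroblasts express all 3, and Col1a1 was at 2.98 to 6.59 TPM on day 0 and 0.575 to 1.45 TPM on days 1 to 3. The part of fibroblast transcripts in these changes was not tested. Among the intermediate filament genes beside Vim, Nes, which encodes nestin, was at 3.67, 3.32, 46.7 and 92.7 TPM (means of days 0 to 3). Its rise came after the day 1 fall of Vim, and both rose from day 2 to day 3. Lmna fell from 38.2 to 15.6 TPM (means of days 0 and 3).

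**Figure D3:**
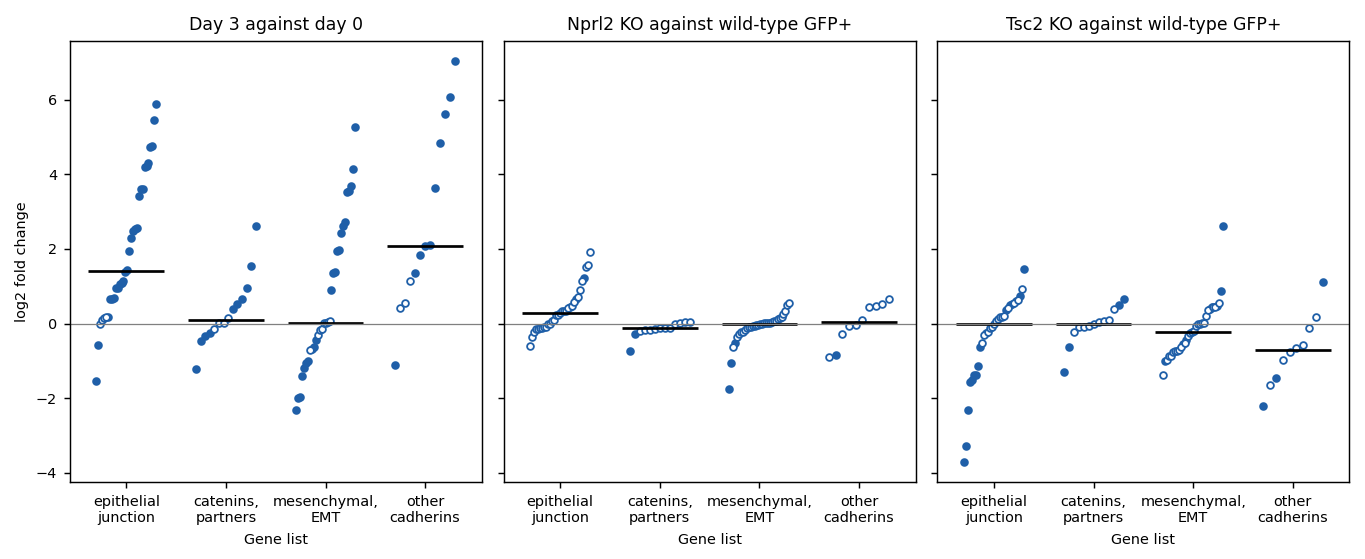
Log2 fold change (y axis) of each tested gene in 4 gene lists (x axis, genes sorted within a list) for 3 comparisons. Filled points were called at an adjusted p under 0.05, open points were not, and bars are list medians. On day 3 the epithelial list has its median at 1.41 and the mesenchymal list at 0.02. In Tsc2 KO the epithelial list has its median at -0.02, with Esrp1 lowest.

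The second question was how loss of each mTORC1 regulator bears on the same genes within cells sorted for expression of the Rex1 reporter. In Nprl2 KO against wild-type, 1 of the 10 was called, Zeb1, which was lower, of 6.43% of all 13725 genes tested (2.78% higher and 3.66% lower). At an unadjusted p under 0.05 there were 4, and with no filter on low counts 4 were called: Cdh1 and Cldn6 (higher, adjusted p = 0.0422 and 0.00844), Snai2 (lower, adjusted p = 0.0145) and Zeb1. In Tsc2 KO against wild-type, 6 were called, of 29.1% of all genes (14.9% higher and 14.2% lower): Cdh1, Cdh2, Cdh3, Epcam and Cldn6 were lower and Zeb1 was higher. Both comparisons use the same 2 wild-type libraries. In the direct comparison of the KOs, which does not use them, 7 were called of 34.2% of all genes (17.5% higher and 16.6% lower), with the same 5 genes lower and Zeb1 and Snai2 higher in Tsc2 KO. The median log2 fold change of the 10 was 0.05, -0.58 and -0.76 in the 3 comparisons, with all-gene medians of 0.00, 0.00 and -0.01.

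**Figure D4:**
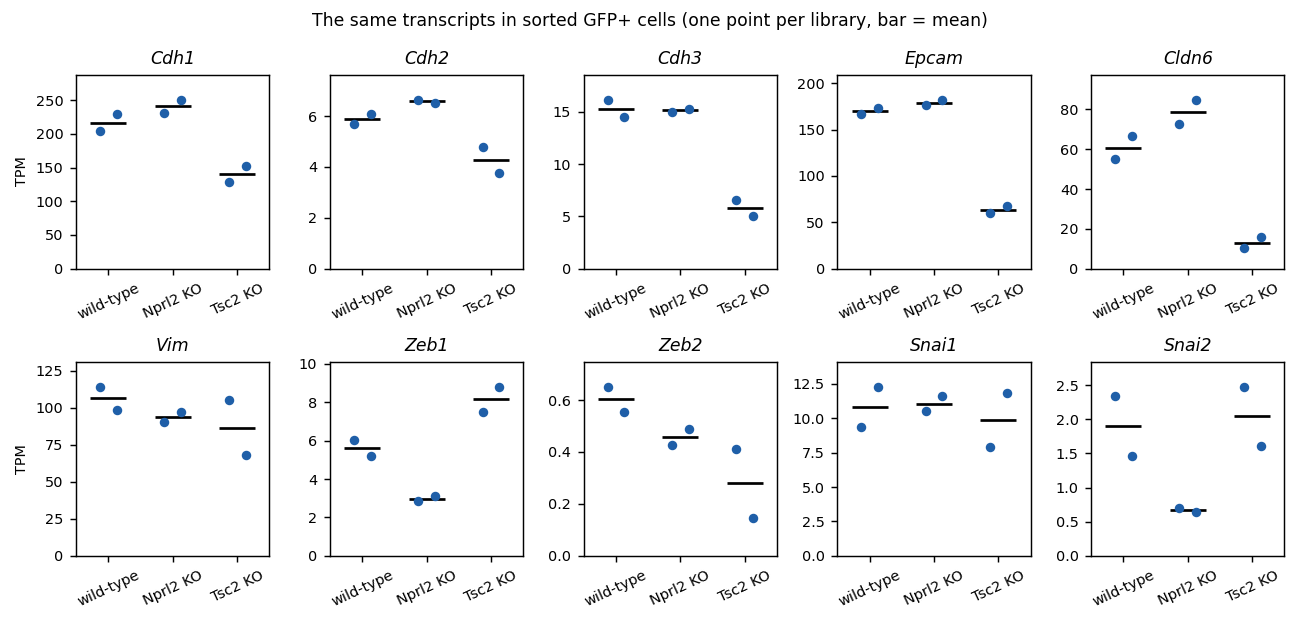
TPM (y axis, linear, from 0, with its own scale for each gene) of the 10 genes in GFP+ cells of the 3 genotypes (x axis). Points are libraries, n = 2 per genotype, and bars are means. Both Tsc2 KO libraries lie below all others for Cdh1, Cdh2, Cdh3, Epcam and Cldn6 and above all others for Zeb1.

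Cdh1 was at 204 and 229 TPM in wild-type, 231 and 251 TPM in Nprl2 KO, and 129 and 152 TPM in Tsc2 KO. The Tsc2 KO libraries lay below the other 4, and the fall was 0.66 on the log2 scale against wild-type (SE 0.09, edgeR adjusted p = 0.000298). Nprl2 KO was not called against wild-type (0.20 ± 0.09, edgeR adjusted p = 0.214). Cdh3 showed a larger difference, at 16.1 and 14.5 TPM in wild-type, 15.0 and 15.3 TPM in Nprl2 KO, and 6.59 and 4.98 TPM in Tsc2 KO, a fall of 1.44 on the log2 scale (SE 0.14, edgeR adjusted p = 1.99e-05).

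Epcam was at 167 and 173 TPM in wild-type, 176 and 182 TPM in Nprl2 KO, and 59.4 and 67.9 TPM in Tsc2 KO, and fell by 1.45 on the log2 scale in Tsc2 KO (SE 0.08, edgeR adjusted p = 2.59e-07). Cldn6 was at 54.9 and 66.6 TPM in wild-type, 72.8 and 84.9 TPM in Nprl2 KO, and 10.3 and 15.7 TPM in Tsc2 KO. Its fall of 2.26 on the log2 scale (SE 0.19, edgeR adjusted p = 5.30e-05), or 4.78-fold, was the largest of the 10 in that comparison. The genotypes did not overlap for Cldn6, and the higher values in Nprl2 KO than in wild-type did not pass the test (0.40 ± 0.16, edgeR adjusted p = 0.196), and passed it where genes of low count were kept (adjusted p = 0.00844). Beside these, the levels in the time course, quantified in another set of libraries and set here without a test, were 36.4 to 53.0 TPM of Epcam on day 0 and 219 to 244 TPM on day 1. Other members of Tsc2 KO stood far from day 0. Vim was at 67.7 to 105 TPM in Tsc2 KO and 413 to 427 TPM on day 0. Snai1 was at 7.92 to 11.8 TPM in Tsc2 KO and 3.59 to 5.85 TPM on day 0.

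Cdh2 was at 5.71 and 6.07 TPM in wild-type, 6.64 and 6.54 TPM in Nprl2 KO, and 4.79 and 3.78 TPM in Tsc2 KO. The Tsc2 KO libraries were lowest, but the call against wild-type was close to the threshold (-0.49 ± 0.16, edgeR adjusted p = 0.0391) and was lost with DESeq2, limma and only the 2 groups compared (adjusted p = 0.0532 to 0.149) and without wild-type library 1 or 2 or Tsc2 KO library 2 (adjusted p = 0.0781, 0.147 and 0.299). Against Nprl2 KO it was -0.70 ± 0.16 (edgeR adjusted p = 0.0044), and without Tsc2 KO library 2 it was -0.52 with an adjusted p of 0.0655. N-cadherin therefore stood on the same side as E-cadherin in Tsc2 KO, and the Cdh1 to Cdh2 ratio of 26.9 and 40.2 in Tsc2 KO overlapped the 35.6 and 37.8 of wild-type.

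Zeb1 was the only one of the 10 called in both KOs. It was at 6.06 and 5.19 TPM in wild-type, 2.87 and 3.10 TPM in Nprl2 KO, and 7.52 and 8.79 TPM in Tsc2 KO, with no overlap between genotypes. It fell by 0.87 on the log2 scale in Nprl2 KO (SE 0.15, edgeR adjusted p = 0.00522) and was higher by 0.50 ± 0.14 in Tsc2 KO (adjusted p = 0.016). The second of these was not called with DESeq2 or limma (adjusted p = 0.0546 to 0.0885) or without wild-type library 2 or Tsc2 KO library 2 (adjusted p = 0.0985 and 0.144), while the difference between the KOs was 1.37 ± 0.14 (edgeR adjusted p = 2.07e-05).

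Snai2 was at 2.34 and 1.46 TPM in wild-type, 0.707 and 0.638 TPM in Nprl2 KO, and 2.47 and 1.61 TPM in Tsc2 KO. The Nprl2 KO libraries lay below the rest, from 8 and 9 estimated counts, and the difference from wild-type was not called (-1.52 ± 0.46, edgeR adjusted p = 0.0699). The difference between the KOs was called (1.55 ± 0.44, edgeR adjusted p = 0.0161), and was lost without Nprl2 KO library 1 or 2 or Tsc2 KO library 1 (adjusted p = 0.0645, 0.0928 and 0.127) and with DESeq2 (adjusted p = 0.102). Snai1 was at 7.92 to 12.3 TPM in all 6 libraries and did not pass the test in any comparison (adjusted p = 0.464 to 0.898).

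Vim was at 114 and 98.5 TPM in wild-type, 90.2 and 96.8 TPM in Nprl2 KO, and 105 and 67.7 TPM in Tsc2 KO, and no comparison was called (edgeR adjusted p = 0.339 to 0.756), although Tsc2 KO was called lower than wild-type with no filter on low counts (-0.34, adjusted p = 0.0019). The low value was that of Tsc2 KO library 2. Zeb2 was lowest in the same library, at 0.147 TPM or 10 estimated counts, against 0.412 to 0.650 TPM in the other 5. Its difference between Tsc2 KO and wild-type was not called (-1.15 ± 0.42, edgeR adjusted p = 0.0574), and was called with no filter on low counts (adjusted p = 0.00864). In that library the sum over 18 fibroblast markers was 72.8 TPM against 252 TPM in Tsc2 KO library 1, and Col1a1 was at 15.0 TPM against 60.3. None of the 16 markers tested was called in Tsc2 KO against wild-type, by edgeR or DESeq2 (0 had an unadjusted p under 0.05 by edgeR), and 13 were lower when library 2 was the only Tsc2 KO library, where Vim (-0.70, edgeR adjusted p = 0.00159) and Zeb2 (-2.02, adjusted p = 0.01) were then called too. A group of 1 library has no spread of its own, so these calls assume that it varies as the other groups do. The part of fibroblast transcripts in these differences was not tested. Without Tsc2 KO library 2, Cdh1, Cdh3, Epcam and Cldn6 kept their calls, and 4 of the 10 were called in place of 6.

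**Figure D5:**
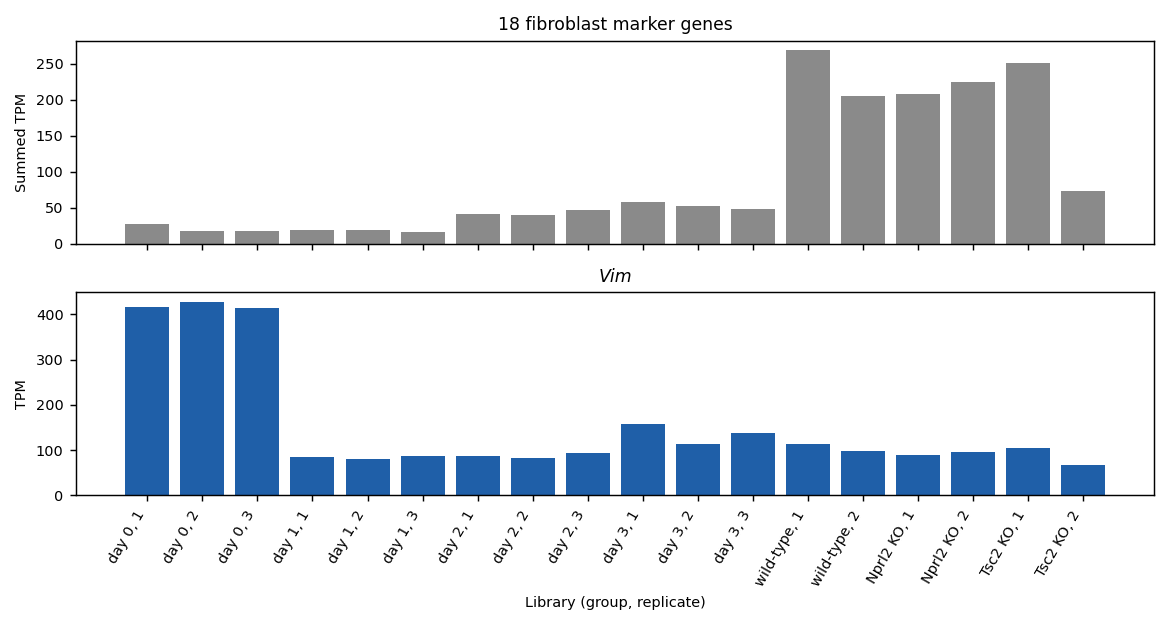
Summed TPM of the 18 fibroblast marker genes (upper bars) and TPM of Vim (lower bars) in each of the 18 libraries (x axis), both axes linear from 0. Vim is highest in the 3 day 0 libraries, at 413 to 427 TPM, where the marker sum is 17.1 to 27.6 TPM. In the GFP+ set, Tsc2 KO library 2 is lowest for both.

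The epithelial list in the GFP+ set had 31 tested genes. In Nprl2 KO, 3 were called, all higher than in wild-type (9.68%, against 2.78% of all genes, median 0.28, log2): Perp, a desmosome protein gene, at 36.7 against 16.3 TPM, St14, which encodes the protease matriptase, at 36.1 against 23.6 TPM, and Esrp1, at 55.4 against 42.0 TPM (means of 2 libraries). Without wild-type library 1, 1 of these was called. In Tsc2 KO, 6 were higher and 10 lower (19.4% and 32.3%, against 14.9% and 14.2% of all genes, median -0.02). Esrp1 was at 3.24 ± 0.29 TPM against 42.0 ± 1.84 TPM in wild-type (SD, n = 2) and fell by 3.73 on the log2 scale (SE 0.11), and Grhl2 was at 8.62 ± 0.03 against 42.4 ± 6.39 TPM and fell by 2.33. Krt18 and Dsp were higher, at 37.7 against 13.6 TPM and 8.06 against 4.74 TPM. The 10 became 6 without wild-type library 2, 4 without Tsc2 KO library 1 and 5 without Tsc2 KO library 2, and the 6 became 2 without wild-type library 1 and 3 without Tsc2 KO library 2. Against Nprl2 KO, 3 were higher and 14 lower (9.68% and 45.2%, against 17.5% and 16.6%). With DESeq2, 5 were higher and 5 lower in Tsc2 KO against wild-type, and 3 higher and 9 lower against Nprl2 KO.

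Of the 13 catenins and partners tested, 2 rose and 2 fell in Tsc2 KO relative to wild-type (15.4% each way, against 14.9% and 14.2% of all genes). Ctnna1, which encodes the α-catenin that links the cadherin complex to actin, was higher by 0.48 ± 0.07 (338 against 236 TPM) in the same cells in which Cdh1 was lower, and Nectin3, an adhesion receptor of adherens junctions, fell by 1.30 on the log2 scale (12.4 against 29.8 TPM). Ctnnb1 was not called in either KO against wild-type (edgeR adjusted p = 0.185 and 0.362). In the direct comparison it was higher in Tsc2 KO than in Nprl2 KO (0.22 ± 0.06, edgeR adjusted p = 0.0125). There, 6 of the 13 were higher and 2 lower in Tsc2 KO, against 17.5% and 16.6% of all genes. Among 10 further cadherins tested in Tsc2 KO against wild-type, 1 was higher and 2 were lower, against 14.9% and 14.2% of all genes. Cdh4 was the higher gene (2.77 against 1.23 TPM), and Pcdh1 was among the lower (1.12 against 2.96 TPM).

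Of 32 mesenchymal genes tested, 5 rose and 3 fell in Tsc2 KO relative to wild-type (15.6% and 9.38%, against 14.9% and 14.2% of all genes, median -0.22). In Nprl2 KO 3 were called, all lower (9.38%, against 3.66%, median -0.02). Tgfbi, which encodes a secreted matrix protein induced by TGF-β, was at 32.4 TPM in Tsc2 KO, 5.06 TPM in wild-type and 1.48 TPM in Nprl2 KO (means of 2), and was called in both KOs, in opposite directions, with a difference between them of 4.38 ± 0.25 (log2, SE). Sparc, which encodes a matrix glycoprotein that fibroblasts also make, was at 365 TPM in Tsc2 KO against 194 TPM in wild-type. The 3 lower genes became 13 when Tsc2 KO library 2 was the only Tsc2 KO library and 5 when library 1 was, and the part of fibroblast transcripts in these counts was not tested.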

How the data were processed

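RNA was extracted with a column kit and sequenced, and the authors quantified reads with kallisto 0.42.1 on mm10 transcripts, per the labels. The deposited files hold estimated counts and TPM per transcript and a TPM table per gene, and 2 tables of the authors' DESeq2 comparisons were not used. Estimated counts were summed per gene (24296 genes, 174 of 34079 transcripts had no gene), rounded, scaled by TMM, filtered with filterByExpr and tested with edgeR 4.0.16 (quasi-likelihood, robust) in R 4.3.3. The 12 time-course and the 6 GFP+ libraries were fitted separately, since they are separate sets, and p-values were adjusted over the 14382 and 13725 genes tested. P-values measure the spread between libraries of a group, which may be technical. Alternatives were DESeq2 1.42.0, upper-quartile scaling, no filter, limma 3.58.1 on log2(TPM + 1) and log2(TPM + 0.1), a replicate block, only the 2 groups compared, and leaving out each library.

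The 10 genes and the gene lists were chosen with earlier results of these data known. All 10 members are named. Of each list, at most 3 called genes with the largest rise and 3 with the largest fall and a mean of at least 1 TPM are named per comparison, and Ctnnb1, Krt8, Cldn9, Col1a1, Thy1, Pkp2 and Pkp3 are named beside the rule where a statement needed them. On simulated counts with 200 changed genes, edgeR recovered 96% of 2-fold changes for day 1 against day 0 and 92% for Nprl2 KO against wild-type, and DESeq2 94% and 78%. In the data, 60.9% and 6.43% of all genes were called in these comparisons. The simulated rates are not specific to genes of low count, so they need not hold for each member. One gene that the naming rule gives for Cdh1 is not reported here.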

Additional observations from a re-analysis of the deposited data

Results flagged for a closer look

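Both KOs remove a negative regulator of mTORC1, and 7 of the 10 genes differed between them by the direct test, which called 34.2% of all genes. Estimates against the shared wild-type libraries were of opposite sign for these 7, but for 2 of them 1 estimate was within its SE of 0 and changed sign when a library was left out (Cdh3 in Nprl2 KO, 0.03 ± 0.13, and Snai2 in Tsc2 KO, 0.03 ± 0.38). The Tsc2 KO minus Nprl2 KO log2 fold change was -0.86 for Cdh1, -0.70 for Cdh2, -1.47 for Cdh3, -1.56 for Epcam, -2.66 for Cldn6, 1.37 for Zeb1 and 1.55 for Snai2 (edgeR). Of the 7, Zeb1 alone was called against wild-type in both KOs. Groups of 2 and 3 libraries are too small for a test of single outlying libraries.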

How the results depend on the processing

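Of 488 estimates of single members under other settings, 452 kept direction and side of the threshold, 17 lost and 10 gained a call, and 9 changed sign. Of 360 with a library left out, 317 were kept, 24 lost and 4 gained a call, and 15 changed sign. Every estimate that changed sign was uncalled in the main test. With upper-quartile scaling, limma at log2(TPM + 1) and limma at log2(TPM + 0.1), Vim from day 1 to day 2 was 0.024, 0.0561 and 0.0567, settings that moved the all-gene median there to 0.10, 0.11 and 0.13. Cdh1 from day 2 to day 3 was 0.0141 with DESeq2, 0.0118 with no filter, and 0.0374 in both limma fits. Cdh3 in Nprl2 KO was -0.0136 and -0.0143 in the limma fits. From day 1 to day 2, limma at log2(TPM + 1) called 5639 genes higher and 3203 lower, against 4677 and 4254 in edgeR. The number of members called from day 2 to day 3 was 2 with limma at log2(TPM + 0.1), and in Nprl2 KO against wild-type it was 4 with no filter.

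With a library left out, the numbers called were 7 to 7 (day 1 against 0), 6 to 8 (2 against 1), 2 to 4 (3 against 2), 9 to 10 (3 against 0), 1 to 1 (Nprl2 KO), 4 to 8 (Tsc2 KO) and 6 to 8 (between KOs). Sign changes gave log2 ranges of -0.389 to 0.00632 for Snai1 from day 0 to day 1, -0.222 to 0.36 for Snai1 and -0.0506 to 0.0463 for Cdh1 from day 2 to day 3, -0.0357 to 0.0854 for Cdh3 and -0.145 to 0.281 for Snai1 in Nprl2 KO, -0.458 to 0.0905 for Snai1 and -0.323 to 0.449 for Snai2 in Tsc2 KO, and -0.525 to 0.0195 for Snai1 and -0.543 to 0.123 for Vim between the KOs.

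Replicate numbers were not taken to pair the libraries. Deviations of same-numbered libraries correlated by -0.10 to 0.12 in the time course and by 0.07 to 0.15 in the GFP+ set. With 2 libraries per genotype, the GFP+ values cannot decide whether the numbers pair. With a replicate block, 4 members were called in Nprl2 KO against wild-type (Cdh1, Cldn6, Snai2 and Zeb1) and 7 in Tsc2 KO, and the other counts stayed within 1.5 times. Snai2 and Zeb2, at 8 to 34 and 10 to 262 estimated counts, are the members that depth limits most.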
